A study of Homo sapiens with 9 samples.

Results

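The genes described here are the nuclear-encoded genes of the mitochondrial respiratory chain, complexes I to V. They were taken from the deposited tables as every row whose Ensembl ID maps to a protein-coding gene with a current symbol starting NDUFA, NDUFB, NDUFC, NDUFS, NDUFV, SDH, UQCR, COX4 to COX8, or ATP5 of the F1, M and P families. The rule found 101 of 62257 gene rows. Of these, 87 are subunits, 12 are assembly factors that carry the same prefixes (NDUFAF1 to NDUFAF8 and SDHAF1 to SDHAF4), and 2 are readthrough rows that join a member to its neighbour. NDUFA4 and NDUFA4L2 carry a complex I prefix and were placed in complex IV, where the NDUFA4 protein is known to belong.

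The cells were A549, an established line from a human lung adenocarcinoma. All 3 groups were cultured in the same medium and had RNA taken after 96 h. The control group received PBS, the DDP_apoEV group received apoptotic extracellular vesicles (apoEVs, membrane particles shed by dying cells) made by inducing apoptosis with cisplatin, and the STS_apoEV group received vesicles made with staurosporine. Each group had 3 libraries, which the labels do not describe as separate cultures, so p-values measure the spread between these libraries, which may be technical. The labels do not name the cells that shed the vesicles, and no library of cells given either drug without vesicles was analysed here.

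In the respiratory chain, complex I (NADH dehydrogenase, the NDUF genes) and complex II (succinate dehydrogenase, SDHA to SDHD) pass electrons to ubiquinone, complex III (the UQCR genes with CYC1) passes them to cytochrome c, and complex IV (cytochrome c oxidase, the COX genes) passes them to oxygen. Complexes I, III and IV pump protons, and complex V (ATP synthase, the ATP5 genes) uses the gradient to make ATP. Most subunits are encoded in the nucleus and imported, while some core subunits of complexes I, III, IV and V are encoded by the mitochondrial genome. Complex II has no subunit from the mitochondrial genome. Lung adenocarcinoma lines in culture use both glycolysis and respiration.

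Total counts per library ran from 13799950 to 16526399, and the 101 genes held 0.98% to 1.09% of them. Libraries are named by group and number, as in control 2. Levels are given as CPM (counts scaled to library size) for one gene across libraries and as the deposited FPKM (fragments scaled to gene length and library size) where genes are set against each other. The epithelial markers KRT8, KRT18 and KRT7 and the A549 enzymes AKR1B10 and ALDH1A1 were abundant. Other epithelial markers were low, with group means of 1.65 to 3.58 CPM for EPCAM, 5.01 to 10.1 for CLDN4 and 9.29 to 17.4 for CDH1. The list of 10 A549 markers summed to 26520 to 27777 CPM in control, 19767 to 21384 with DDP_apoEV, below all other libraries, and 25161 to 26814 with STS_apoEV. Fibroblast, endothelial and erythroid lists each summed to under 5 CPM, with the first 2 higher in every STS_apoEV library than in any other (3.73 to 4.21 and 2.89 to 4.52 CPM against 3.19 to 3.64 and 1.32 to 1.76 in control). The 8 leukocyte markers summed to 10.6 to 16.5 CPM in control, 14.1 to 15.7 with DDP_apoEV and 20.8 to 25.8 with STS_apoEV, nearly all from CD14 and ITGAM, while PTPRC, CD3E and MS4A1 had at most 3 counts in any library. Replication-dependent histone genes summed to 216 to 233, 249 to 262 and 284 to 318 CPM in the same order. The leukocyte sum lay above all others in the STS_apoEV libraries, the histone sum lay above control in both vesicle groups, and the part of all these sums in the results was not tested. In bulk RNA, a smaller share of cells that express a gene and less of its RNA per cell cannot be told apart.

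The subunit genes differed widely in level within every complex. In control cells the highest was ATP5F1B, the catalytic beta subunit of ATP synthase, at 489.9 ± 22.8 FPKM (SD, n = 3), followed by COX8A of cytochrome c oxidase at 457 ± 34.1, COX6B1 of the same complex at 258 ± 17.4 and NDUFS5 of complex I at 246 ± 14.6. The lowest of the 4 complex II genes was SDHA, the flavin-binding catalytic subunit, at 1.29 ± 0.0728 FPKM, against 44.2 ± 3.11 for SDHB, 72.9 ± 5.26 for SDHC and 22.2 ± 0.969 for SDHD. Among tested subunits the median control level was 14.8 FPKM in complex I, 33.2 in complex II, 42.8 in complex III, 65.0 in complex IV and 51.3 in complex V. Of 90 tested genes, 13 had at least 100 FPKM in control and 10 had under 3.

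Several complex I subunits were nearly uncounted, and others were low. NDUFS3, a core subunit of the peripheral arm of complex I, had 0 to 4 counts per library, and the accessory subunits NDUFA6 and NDUFA3 had 0 to 1 and 0 to 7. NDUFA7 (0.57 ± 0.419 FPKM in control), NDUFA13 (0.86 ± 0.245), SDHA, NDUFS7 (2.31 ± 0.152), NDUFV2 (2.53 ± 0.616) and NDUFS1 (2.81 ± 1.14) were low. For some of these the annotation places the same sequence in other genes. Cut into 50-base stretches, the longest coding transcript of NDUFA7 had 76.8% of its stretches also present in transcripts of other genes, NDUFV2 74.0%, NDUFS7 55.5%, NDUFA13 41.3% and SDHA 22.3%. SDHA held 1370 counts over the 9 libraries, while its copies SDHAP1, SDHAP3 and SDHAP4 held 4159, 1592 and 2408. A further deposited row, absent from the annotation used for the stretches, spans 100% of SDHA, and the stretch measure takes no account of it. In contrast NDUFA6 had 0% and NDUFS3 2.97% by this measure, although 22.4% of NDUFS3's exon bases lie under exons of other genes. Whether reads of these genes were assigned elsewhere was not tested, and levels of the 42 tested genes with at least 5% of shared stretches are uncertain. NDUFB5 had 2.38% of shared stretches, but 99.5% of its span lies under another row absent from that annotation. Its level is uncertain as well.

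**Figure D1:**
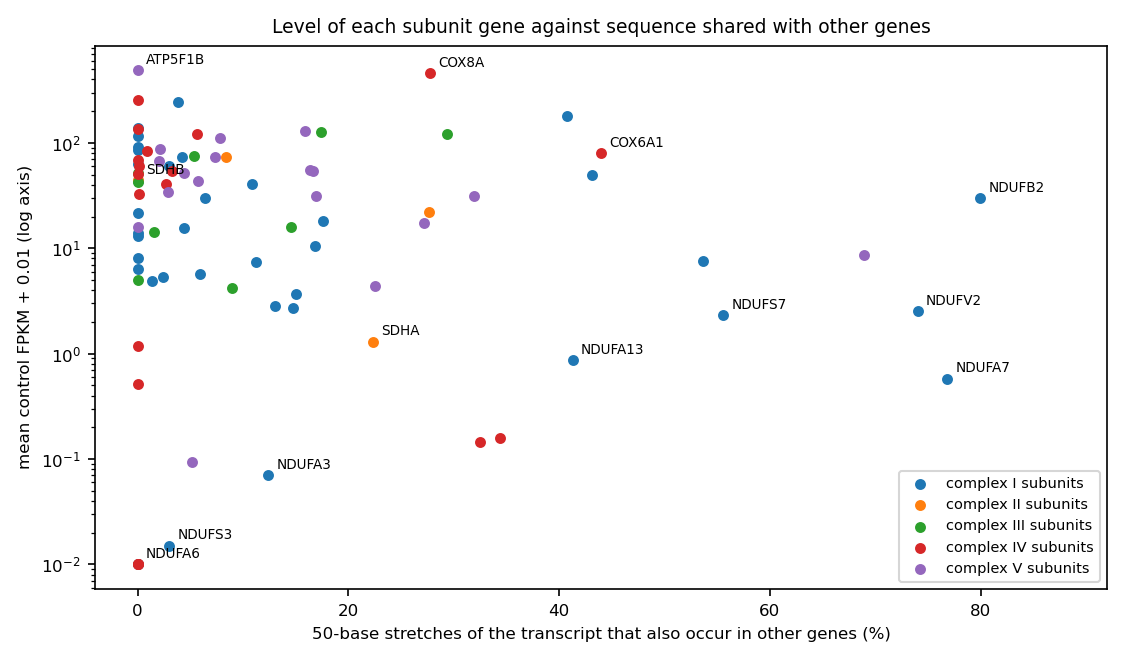
Mean control FPKM plus 0.01 (log axis) of each of the 87 subunit genes against the percentage of 50-base stretches of its longest coding transcript that also occur in other genes, coloured by complex. NDUFA7, NDUFV2 and NDUFS7 are low and share more than 50% of their stretches, whereas NDUFS3 and NDUFA6 lie at the bottom with few or none, and NDUFB2 shares 80.0% with a level of 30.1 FPKM.

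Where a subunit exists in tissue isoforms, the broadly expressed form held nearly all of the signal in every library. COX4I1 stood at 68.9 ± 1.54 FPKM in control, while COX4I2 had 0 to 1 counts. COX6A1, COX6B1, COX7B and COX8A likewise held over 99% of the FPKM of their pairs. Their partners COX6A2 (0 to 3 counts) and COX6B2 (0 to 12), which are known from muscle and from testis, were not tested, nor were COX7B2 and COX8C, with 0 counts in all libraries. A count of 0 allows up to 3 counts, or 0.182 to 0.217 CPM. COX7A2, the non-muscle form, made up 98.1% ± 0.182 of the summed FPKM of COX7A1 and COX7A2 in control, 96.3% ± 0.774 with DDP_apoEV and 96.5% ± 2.14 with STS_apoEV. For NDUFA4 against NDUFA4L2, a paralogue known as hypoxia-induced, these shares were 99.1% ± 0.219, 99.3% ± 0.149 and 99.6% ± 0.105.

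The membrane ring of ATP synthase is built from identical c subunits that come from ATP5MC1, ATP5MC2 and ATP5MC3. All were well expressed here. ATP5MC1 made up 38.3% ± 0.836 of their summed FPKM (SD, n = 3) in the control group, 41.0% ± 1.11 in the DDP_apoEV group and 38.0% ± 1.01 in the STS_apoEV group. ATP5MC2 held 29.5% ± 1.21, 27.8% ± 0.504 and 30.8% ± 0.944, and ATP5MC3 32.2% ± 1.95, 31.1% ± 0.607 and 31.2% ± 0.858. ATP5MC1 thus had the highest mean share of FPKM in all groups, and the shares of ATP5MC2 and ATP5MC3 with STS_apoEV lay within 1 SD of each other. In counts over all libraries ATP5MC1 was the lowest, with 32763 against 36444 for ATP5MC2 and 39133 for ATP5MC3. Its place in FPKM therefore depends on the gene length used for scaling.

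The first comparison asks whether vesicles from cisplatin-induced apoptosis changed these genes. Among the 90 tested genes 2 rose and 0 fell, and the test was not passed by 88, whereas 15.5% of all 16947 tested genes were called (7.16% higher and 8.32% lower). Calls are at a Benjamini-Hochberg adjusted p under 0.05 in edgeR's quasi-likelihood test over all genes, as is every adjusted p below. Both calls were in complex I. NDUFA8, an accessory subunit, stood at 78.5, 70.6 and 75.9 CPM in the control libraries, 98.3, 83.8 and 95.2 with DDP_apoEV and 80.5, 91.1 and 85.9 with STS_apoEV. Its DDP_apoEV libraries lay above all control libraries, with a log2 fold change of 0.30 ± 0.08 (SE) and an adjusted p of 0.00952. The call was lost without control 2 (adjusted p = 0.0651) or DDP_apoEV 1 (0.0749).

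NDUFAF2, an assembly factor of complex I, stood at 31.3, 32.4 and 28.7 CPM in the control libraries, 42.6, 38.4 and 35.1 with DDP_apoEV and 22.5, 31.1 and 32.9 with STS_apoEV. Here the DDP_apoEV libraries lay above those of both other groups, with a log2 fold change against control of 0.33 ± 0.11 and an adjusted p of 0.0451. This call did not hold without control 1 (0.0976), control 2 (0.0675), control 3 (0.184), DDP_apoEV 1 (0.216) or DDP_apoEV 2 (0.0963), and 36.3% of its stretches occur in other genes. At an unadjusted p under 0.05 edgeR gave 9 members higher and 2 lower, DESeq2 called 1 higher and 0 lower after adjustment, and limma-voom 2 and 0. In complexes III and IV no tested gene reached an unadjusted p under 0.05, and DESeq2 and limma-voom called 0 there. The median log2 fold change of members was 0.02, and that of all genes was −0.003. Libraries did not overlap for 14 members higher and 3 lower, that is 14 of 90 and 3 of 90, while over all genes the shares were 15.8% and 16.4%.

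**Figure D2:**
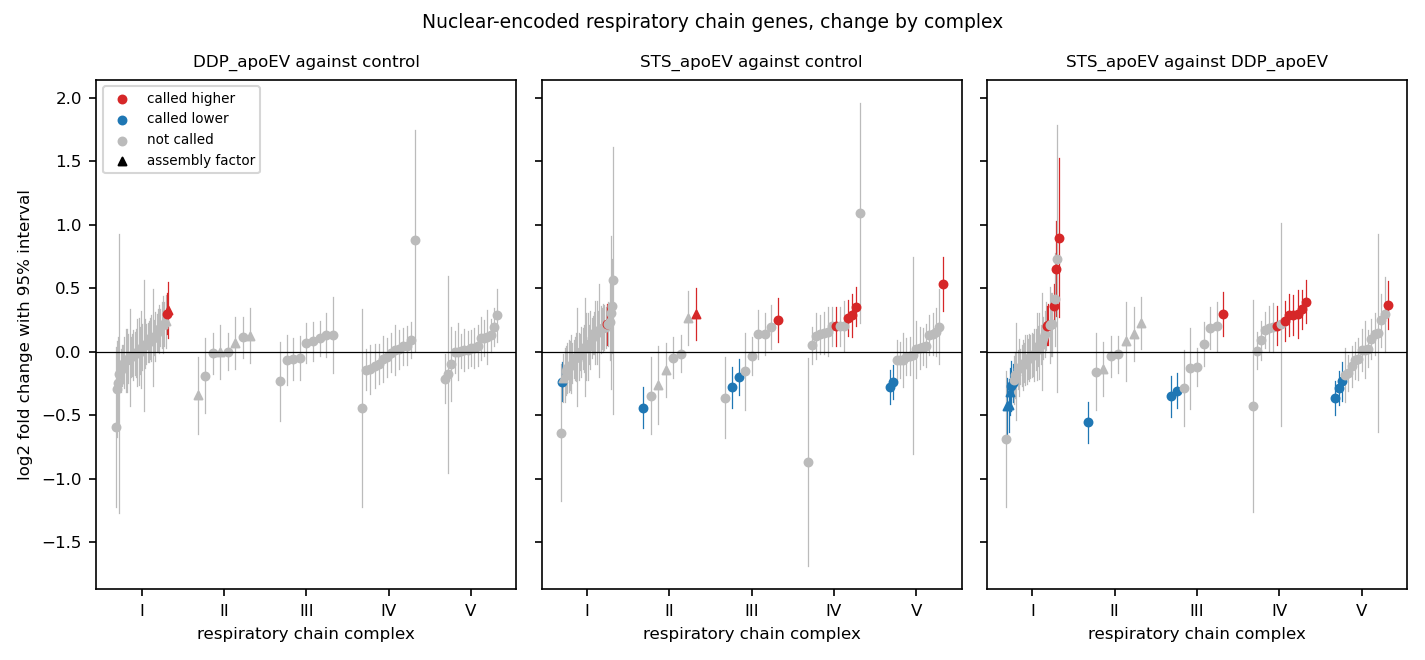
Log2 fold change of each of the 90 tested genes with its 95% interval, by complex, in the 3 comparisons, with called genes in colour and assembly factors as triangles. Against control, DDP_apoEV has 2 coloured points and STS_apoEV 14, and in complex IV the coloured points of both STS_apoEV comparisons lie above 0.

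Vesicles from staurosporine-induced apoptosis were compared with control next. Among the 90 tested genes 8 rose and 6 fell, and the test was not passed by 76, against 32.8% of all tested genes called (15.9% higher and 16.8% lower). The genes that fell included SDHB of complex II, UQCRC1 and UQCRFS1 of complex III, and ATP5F1A and ATP5F1B of complex V. The genes that rose were mostly small accessory subunits, among them COX4I1, COX6B1, COX7A2 and NDUFA4 of complex IV. No member was called with a change of 2-fold or more in any comparison. The median log2 fold change was 0.05 in members and 0.01 in all genes. Libraries did not overlap for 9 members higher and 12 lower, with 21.6% and 21.7% of all genes doing so.

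SDHB, which carries the iron-sulfur clusters of succinate dehydrogenase (ENSG00000117118, chromosome 1, 17018722 to 17054032, minus strand, hg38), stood at 112, 98.8 and 100.2 CPM in the control libraries, 107, 117 and 113 with DDP_apoEV and 67.7, 82.2 and 79.4 with STS_apoEV. All 3 STS_apoEV libraries lay below all 6 others, and the log2 fold change against control was −0.44 ± 0.08 (SE) with an adjusted p of 8.27e-05. SDHB was the only called subunit of its complex. The membrane anchors SDHC and SDHD had 95% intervals of −0.16 to 0.13 and −0.21 to 0.12 on the log2 scale. SDHA stood at 12.0, 11.3 and 10.8 CPM in the control libraries, 10.0, 11.1 and 8.77 with DDP_apoEV and 9.19, 7.49 and 10.1 with STS_apoEV. All its STS_apoEV libraries were below all control libraries and overlapped those with DDP_apoEV, and at −0.34 ± 0.15 (adjusted p = 0.0852) it did not pass the test.

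The catalytic head of ATP synthase is made of alpha subunits from ATP5F1A (ENSG00000152234, chromosome 18, 46080248 to 46104334) and beta subunits from ATP5F1B (ENSG00000110955, chromosome 12, 56638175 to 56645984). ATP5F1A stood at 579, 558 and 557 CPM in the control libraries, 582, 549.9 and 567 with DDP_apoEV and 437, 475 and 486 with STS_apoEV. ATP5F1B stood at 1165, 1064 and 1093 CPM in the control libraries, 1180, 1265 and 1190 with DDP_apoEV and 904, 959.6 and 958 with STS_apoEV. In both genes every STS_apoEV library was below every library of the other groups. Their log2 fold changes against control were −0.28 ± 0.07 (adjusted p = 0.00182) and −0.24 ± 0.07 (0.00708), and like SDHB they were called in all 18 alternative fits. ATP5F1C, the gamma subunit of the central stalk, did not pass, with 265, 255 and 252 CPM in the control libraries, 263, 259 and 266 with DDP_apoEV and 227, 249 and 277 with STS_apoEV.

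The delta subunit of the same stalk, ATP5F1D, rose. It stood at 42.4, 33.2 and 33.5 CPM in the control libraries, 44.4, 46.5 and 42.5 with DDP_apoEV and 47.3, 62.6 and 48.5 with STS_apoEV. The DDP_apoEV libraries, at 42.5 to 46.5 CPM, were also all above the control libraries, by a narrow gap, but that comparison did not pass the test. STS_apoEV libraries were all above the control libraries. Its log2 fold change of 0.54 ± 0.11 against control (adjusted p = 0.000296) had the largest size among the 14 called members of this comparison. Within the same complex, 1 gene rose, 2 fell and 14 of 17 did not pass.

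In complex III, UQCRC1 and UQCRFS1 fell and UQCRQ rose among 9 tested genes. UQCRC1, a core subunit on the matrix side (ENSG00000010256, chromosome 3, 48599002 to 48610976), stood at 176, 153 and 174 CPM in the control libraries, 178, 182 and 167 with DDP_apoEV and 127, 158 and 129 with STS_apoEV. STS_apoEV 2 overlapped the control libraries. The log2 fold change was −0.28 ± 0.08 (adjusted p = 0.00832), and without STS_apoEV 1 the adjusted p was 0.0569. UQCRFS1, the Rieske iron-sulfur protein (ENSG00000169021, chromosome 19, 29205320 to 29213151), stood at 422, 375 and 395 CPM in the control libraries, 451, 415 and 417 with DDP_apoEV and 325, 361 and 353 with STS_apoEV. Here the STS_apoEV libraries lay below all others, at −0.20 ± 0.07 (0.0306). That call was lost without control 1 (0.139), without STS_apoEV 1 (0.112) and with upper-quartile scaling (0.0624). The small subunit UQCRQ stood at 188, 165 and 156 CPM in the control libraries, 169, 149.6 and 174 with DDP_apoEV and 173, 212 and 219 with STS_apoEV, with STS_apoEV 1 inside the control range, and its call (0.25 ± 0.09, adjusted p = 0.0292) was lost without control 2 (0.131), control 3 (0.194), STS_apoEV 2 (0.124) or STS_apoEV 3 (0.159).

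Complex I, with 42 tested genes, had few calls. NDUFA5, an accessory subunit of the peripheral arm, was called higher with a log2 fold change of 0.22 ± 0.08 (adjusted p = 0.0424) but held in 4 of 18 alternatives, and leaving out control 1, 2 or 3 or STS_apoEV 1 or 3 gave adjusted p-values of 0.0803, 0.0890, 0.223, 0.0772 and 0.270. Among core subunits that did not pass, NDUFV1, which binds NADH and FMN, stood at 99.9, 82.4 and 95.6 CPM in the control libraries, 97.2, 90.4 and 87.8 with DDP_apoEV and 80.0, 98.5 and 89.9 with STS_apoEV, and NDUFS8 at 113, 89.9 and 94.7 CPM in the control libraries, 121, 121 and 105 with DDP_apoEV and 105, 126 and 109 with STS_apoEV, with overlapping groups in both. NDUFS1 had the lowest log2 fold change in the complex (−0.64 ± 0.27, adjusted p = 0.133), at 31.0, 49.7 and 22.7 CPM in the control libraries, 39.0, 33.8 and 34.1 with DDP_apoEV and 22.3, 22.5 and 21.6 with STS_apoEV. All STS_apoEV libraries were below all 6 others, by a narrow gap to control 3, and without control 3 the gene was called at −0.88 (adjusted p = 8.69e-05).

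Complex IV was the complex with the most calls upward. Of 14 tested genes 4 rose and 0 fell, and 13 of 14 had a positive log2 fold change, with a median of 0.20 against 0.01 over all genes. At an unadjusted p under 0.05 edgeR gave 7 higher and 1 lower, and after adjustment DESeq2 called 3 and 0 and limma-voom 5 and 0. NDUFA4 stood at 197, 187 and 188 CPM in the control libraries, 200.1, 179 and 201 with DDP_apoEV and 214, 257 and 260.1 with STS_apoEV. All STS_apoEV libraries were above all 6 others, at 0.36 ± 0.08 (adjusted p = 0.000484). COX4I1, which sits next to the catalytic core, stood at 342, 326 and 338 CPM in the control libraries, 369, 348 and 356 with DDP_apoEV and 360.2, 431 and 416 with STS_apoEV. Its log2 fold change of 0.26 ± 0.07 (0.00482) also had STS_apoEV libraries above all control libraries, although STS_apoEV 1 lay inside the DDP_apoEV range.

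The calls of COX7A2 and COX6B1 were less stable. COX7A2 stood at 125, 115 and 115 CPM in the control libraries, 114, 104 and 112 with DDP_apoEV and 120.2, 149 and 164 with STS_apoEV, with STS_apoEV 1 inside the control range, and its log2 fold change was 0.29 ± 0.09 (0.0114). It was lost without control 2 (0.0676), control 3 (0.0696) or STS_apoEV 3 (0.121). COX6B1, a subunit of the intermembrane face, stood at 383, 335 and 351 CPM in the control libraries, 372, 344 and 348 with DDP_apoEV and 353, 447 and 429 with STS_apoEV and was called at 0.20 ± 0.08 with an adjusted p of 0.0490. Leaving out control 2, control 3, STS_apoEV 2 or STS_apoEV 3 gave 0.268, 0.171, 0.253 and 0.162. Without STS_apoEV 1, 9 genes of the complex were called higher, and without control 2, 2 were. The remaining call upward was SDHAF2, which attaches FAD to SDHA, at 0.30 ± 0.10 (0.0266), lost without control 1 (0.0600), control 2 (0.144), control 3 (0.0538), STS_apoEV 1 (0.0626) or STS_apoEV 3 (0.0809).

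**Figure D3:**
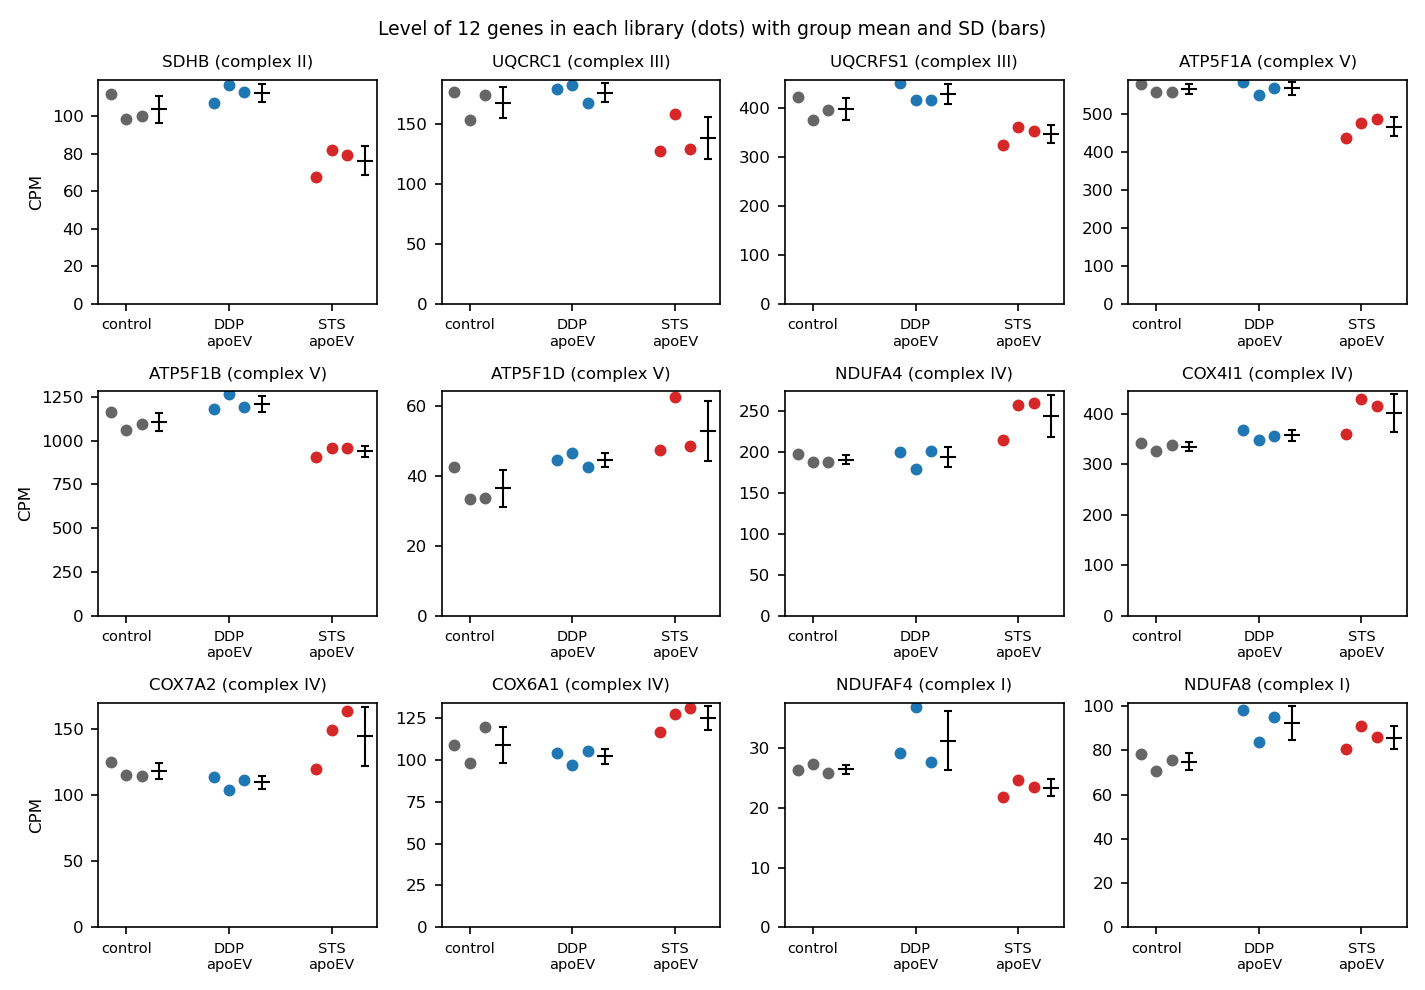
CPM of 12 genes in each library (dots) by group, with the group mean and SD beside them and the axis from 0. SDHB, ATP5F1A, ATP5F1B and UQCRFS1 show 3 STS_apoEV dots below the other 6, and NDUFA4 shows 3 above them.

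The vesicle types were then compared with each other. This comparison shares its STS_apoEV and DDP_apoEV libraries with those above. Of 90 members, 14 were higher and 11 lower with STS_apoEV than with DDP_apoEV, and 65 did not pass, against 39.7% of all tested genes called (20.2% higher and 19.5% lower). The median log2 fold change was 0.02 in members and 0.03 in all genes. Libraries did not overlap for 11 members higher and 16 lower, with 24.3% and 23.2% of all genes doing so. In complex IV 7 of 14 were higher and 0 lower, with a median of 0.21. There edgeR gave 8 higher and 0 lower at an unadjusted p under 0.05, and after adjustment DESeq2 called 6 and 0 and limma-voom 7 and 0. Without DDP_apoEV 2 or without STS_apoEV 2, 3 genes of complex IV were called higher.

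Lower with STS_apoEV were SDHB (−0.56 ± 0.08, adjusted p = 1.74e-06), ATP5F1B (−0.37 ± 0.07, 5.15e-05), ATP5F1A (−0.28 ± 0.07, 0.00128), UQCRC1 (−0.35 ± 0.08, 0.000888) and UQCRFS1 (−0.31 ± 0.07, 0.000832), on the library values given above. Each of these calls held in all 18 alternatives. The complex I assembly factors NDUFAF4, NDUFAF5 and NDUFAF2 were lower as well. NDUFAF4 stood at 26.3, 27.3 and 25.9 CPM in the control libraries, 29.2, 36.9 and 27.8 with DDP_apoEV and 21.9, 24.7 and 23.5 with STS_apoEV, a log2 fold change of −0.42 ± 0.11 (0.00203). NDUFAF5 stood at 35.7, 29.9 and 34.3 CPM in the control libraries, 36.2, 36.3 and 35.3 with DDP_apoEV and 27.8, 29.5 and 29.4 with STS_apoEV, a log2 fold change of −0.31 ± 0.09 (0.00772). In both, the STS_apoEV libraries were below all DDP_apoEV libraries. For NDUFAF2 the difference was −0.43 ± 0.11 (0.00338). Of the 8 NDUFAF genes, edgeR, DESeq2 and limma-voom each called 3 lower and 0 higher, and edgeR gave 3 and 0 at an unadjusted p under 0.05.

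A further 3 subunits were called lower with less margin. NDUFB10, an accessory subunit of the membrane arm, differed by −0.24 ± 0.08 (0.00984), with an adjusted p of 0.0560 without STS_apoEV 1. ATP5MC1, the c-ring gene above, stood at 248, 217 and 228 CPM in the control libraries, 286, 244 and 265 with DDP_apoEV and 210.4, 242 and 224 with STS_apoEV and differed by −0.23 ± 0.08 (0.0147), a call lost without DDP_apoEV 1 (0.112) or STS_apoEV 1 (0.0747). NDUFS6, a zinc-binding subunit of complex I, differed by −0.27 ± 0.10 (0.0341), lost without DDP_apoEV 1 (0.256), STS_apoEV 1 (0.144) or STS_apoEV 2 (0.0882) and with upper-quartile scaling (0.0609).

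Among the genes higher with STS_apoEV, COX7A2 (0.40 ± 0.09, adjusted p = 0.000547), NDUFA4 (0.34 ± 0.08, 0.000723) and COX6A1 (0.29 ± 0.08, 0.00369) of complex IV stayed called whichever single library was left out. COX6A1, a small membrane-spanning subunit, stood at 109, 98.2 and 119.7 CPM in the control libraries, 104, 96.9 and 106 with DDP_apoEV and 117, 127 and 131 with STS_apoEV, with the STS_apoEV libraries above the DDP_apoEV libraries. Calls that likewise stayed whichever single library was left out were those of NDUFB2 of complex I (0.36 ± 0.09, 0.00118) and ATP5MG, which helps dimerise ATP synthase (0.37 ± 0.10, 0.00279). NDUFB2, COX6A1 and ATP5MG share 80.0%, 44.0% and 22.6% of their 50-base stretches with other genes, so their levels are uncertain. For COX7A2 and NDUFA4 these shares are 0.116% and 3.22%. COX5B, a zinc-binding subunit, stood at 207, 184 and 187 CPM in the control libraries, 191, 163 and 171 with DDP_apoEV and 185, 235 and 222 with STS_apoEV and differed by 0.29 ± 0.08 (0.00628), lost without DDP_apoEV 2 (0.0634) or STS_apoEV 2 (0.0501). UQCRQ differed by 0.30 ± 0.09 (0.00828), lost without DDP_apoEV 2 (0.0825) or STS_apoEV 3 (0.0649). For COX8A (0.24 ± 0.08, 0.0139) the libraries that mattered were DDP_apoEV 2 (0.153) and STS_apoEV 2 (0.0747). For COX7C (0.30 ± 0.10, 0.0198) they were DDP_apoEV 2 (0.124), STS_apoEV 2 (0.0866) and STS_apoEV 3 (0.128).

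The largest called log2 fold changes in this comparison were in low rows with shared sequence. NDUFA13, a membrane-arm subunit, stood at 2.99, 2.39 and 1.67 CPM in the control libraries, 1.94, 1.28 and 1.46 with DDP_apoEV and 3.79, 2.16 and 2.82 with STS_apoEV and was called at 0.90 ± 0.32 (0.0234). Leaving out DDP_apoEV 2, DDP_apoEV 3 or STS_apoEV 1 gave 0.0959, 0.0658 and 0.161. NDUFV2, an iron-sulfur subunit of the NADH-binding module, stood at 6.70, 8.69 and 5.41 CPM in the control libraries, 5.25, 5.49 and 6.23 with DDP_apoEV and 10.4, 7.89 and 8.38 with STS_apoEV and was called at 0.65 ± 0.19 (0.00626), with 0.0657 without STS_apoEV 1. Calls of smaller size went to COX6B1 (0.21 ± 0.08, 0.0354), NDUFB11 (0.21 ± 0.08, 0.0377) and NDUFA2 (0.21 ± 0.08, 0.0393). COX6B1 was lost without DDP_apoEV 2 (0.152), DDP_apoEV 3 (0.107), STS_apoEV 2 (0.196) or STS_apoEV 3 (0.129). NDUFB11 was lost without DDP_apoEV 1 (0.0570), DDP_apoEV 2 (0.124), DDP_apoEV 3 (0.114) or STS_apoEV 2 (0.272). NDUFA2 was lost without DDP_apoEV 1 (0.0637), DDP_apoEV 2 (0.120), DDP_apoEV 3 (0.118), STS_apoEV 2 (0.0840) or STS_apoEV 3 (0.168). Of the 14 genes called higher, 10 share at least 5% of their 50-base stretches with other genes, as do 2 of the 11 called lower and 30 of the 65 not called.

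Over the 3 comparisons, 31 of 90 tested members were called at least once and 59 in none. A single test of any difference among the 3 groups passed for 26 members (28.9%) and for 7642 of all tested genes (45.1%). The members called in no comparison include SDHA, SDHC and SDHD and the assembly factors SDHAF1, SDHAF3 and SDHAF4. The widest values among genes not called were those of low rows, such as COX7A1 and NDUFA4L2. COX7A1, the muscle form, stood at 0.625 to 0.752 CPM in control and 0.774 to 2.24 CPM with STS_apoEV, a log2 fold change of 1.10 ± 0.44 with an adjusted p of 0.0556. NDUFA4L2 stood at 1.03 to 1.67 CPM in control and 0.675 to 0.912 CPM with STS_apoEV, at −0.87 ± 0.42 (0.114).

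Some members that did not pass were called in an alternative fit. Between the vesicle types NDUFS1 differed by −0.69 ± 0.27 (adjusted p = 0.0948), a lower value than that of any called member, and was called by DESeq2 (0.0402), by both limma fits to FPKM that filter low genes, with pseudocounts of 1 and 0.1 (0.0474 and 0.0379) and in a fit of these 2 groups alone (1.68e-06). UQCRC2, the other core protein of complex III, stood at 20.5, 27.1 and 21.3 CPM in the control libraries, 19.0, 16.6 and 23.1 with DDP_apoEV and 15.4, 15.4 and 22.9 with STS_apoEV. Its log2 fold change for STS_apoEV against control was −0.36 ± 0.16 (adjusted p = 0.0996), and it was called without STS_apoEV 3 (0.00400), without a filter (0.0153) and with the replicate block (0.0423). COX7A1 was called there without STS_apoEV 3 (0.0180). ATP5F1D with DDP_apoEV (0.29 ± 0.11, 0.0718) was called without control 1 (0.0120), without a filter (0.0422) and in a fit of the 2 groups alone (0.0327). SDHAF2 between the vesicle types (0.23 ± 0.10, 0.0818) was called with upper-quartile factors (0.0467) and by both filtered limma fits (0.0432 and 0.0433).

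Summed over subunits, complex IV was highest in 2 of the STS_apoEV libraries and complex II lowest in all 3 of them, while the sums of complexes I and III overlapped between all groups. The 19 complex IV genes summed to 2461, 2236 and 2310 CPM in the control libraries, 2400, 2186 and 2323 with DDP_apoEV and 2357, 2830 and 2870 with STS_apoEV. STS_apoEV 2 and 3 lay above all other libraries, and STS_apoEV 1 lay within the control range. The 4 complex II genes summed to 335, 306 and 311 CPM in control, 317, 333 and 324 with DDP_apoEV and 265, 292 and 296 with STS_apoEV, so all STS_apoEV libraries were below the rest. Complex V, with 18 genes, summed to 3943, 3624 and 3627 CPM in control, 4008, 3780 and 3953 with DDP_apoEV and 3231, 3596 and 3708 with STS_apoEV, where the STS_apoEV libraries were all below the DDP_apoEV libraries and overlapped control. For complex I the sums were 2500, 2276 and 2326 CPM in control, 2591, 2344 and 2460 with DDP_apoEV and 2246, 2580 and 2597 with STS_apoEV. For complex III they were 1259, 1140 and 1165 CPM in control, 1277, 1168 and 1230 with DDP_apoEV and 1054, 1192 and 1228 with STS_apoEV. STS_apoEV 1 had the lowest sum of its group in all 5 complexes. These sums are set by their most abundant genes.

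**Figure D4:**
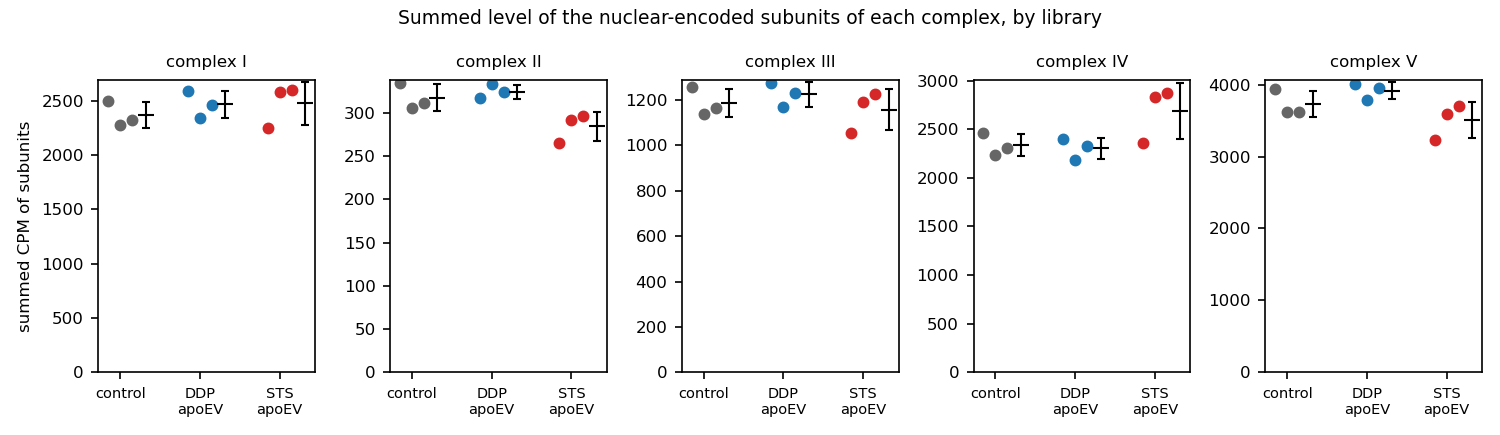
Summed CPM of the nuclear-encoded subunits of each complex in every library (dots), with the group mean and SD and the axis from 0. In complex IV, STS_apoEV 2 and STS_apoEV 3 lie above the other 7 libraries, and in complex II the 3 STS_apoEV libraries lie below the other 6.

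Libraries of the same group differed in the members as a set. The median log2 deviation of the tested members from their 9-library mean was −0.11, 0.05 and 0.11 in the STS_apoEV libraries, 0.05, −0.08 and −0.05 in control, and 0.07, −0.07 and 0.02 with DDP_apoEV. The range within STS_apoEV is wider than the members' median log2 fold change in each of the 3 comparisons. Members are also short genes, with a median length of 2581.5 bases against 4614 for all tested genes. Among 5 equal classes of gene length, the shortest had a median log2 fold change of 0.09 for STS_apoEV against control and 0.09 for STS_apoEV against DDP_apoEV, and the longest had −0.04 and −0.02. The genes called higher between the vesicle types had a median length of 2093.5 bases, those called lower 2615 and those not called 2712. For STS_apoEV against control these medians were 2233.5, 3145 and 2581.5 bases. The part of gene length in these calls was not tested beyond the medians.

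Promoters of respiratory chain genes are known for binding sites of the factors NRF1, GABPA (an ETS factor, also called NRF2 alpha) and YY1. RefSeq promoters (GRCh38.p14, 250 bases before to 50 after the start) matched 82 of the 101 genes and were searched on both strands, with overlaps allowed. The NRF1-type motif (GCGC and TGCGC with any base between them) was in 24.4% of them, against 8.58% of 15843 protein-coding promoters of the same length. The YY1-type motif AANATGGCG was in 20.7% against 4.81%, and the ETS-type motif ACCGGAAG in 7.32% against 3.12%. The YY1-type letters include ATG, and the window runs 50 bases past the start, so a match can be the start of a coding sequence. How many of the YY1-type matches lie there was not tested, so their share is not a share of YY1 binding sites. Motifs of general promoter factors were near the background, with CCAAT (NF-Y) in 32.9% against 36.4%, GGGCGG (SP1) in 58.5% against 58.5% and TATAAA (the TATA box) in 8.54% against 9.63%. By complex, the NRF1 type was in 4 of 7 promoters of tested complex III subunits and 0 of 11 of complex IV, and its letters are in 5 of 29 of complex I, 2 of 3 of complex II and 4 of 13 of complex V.

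The genes SDHB, UQCRC1 and UQCRFS1, lower with STS_apoEV than with either other group, each had matches to 2 of these motifs. They are shown for that reason, in windows of 30 bases written 5′ to 3′ on the gene's strand with the match in capitals. ATP5F1A and ATP5F1B were lower in the same comparisons and are not shown. ATP5F1A had no match to the NRF1, ETS or YY1 types, and ATP5F1B had no promoter to search. The ETS-type and then the YY1-type match of SDHB, the NRF1-type and YY1-type matches of UQCRC1, and the same pair of UQCRFS1 were as follows.
SDHB, chr1:17054143-17054172, minus strand: ccacccgggaaACCGGAAGccgcctcccac
SDHB, chr1:17054003-17054032, minus strand: gtcaggagccAAGATGGCGgcggtggtcgc
UQCRC1, chr3:48609674-48609703, minus strand: gtacggtactGCGCCTGCGCcgcgaccgcc
UQCRC1, chr3:48609604-48609633, minus strand: ctgcagctggAAGATGGCGgcgtccgtggt
UQCRFS1, chr19:29213163-29213192, minus strand: gcgcctcctcGCGCCTGCGCcgtggttgga
UQCRFS1, chr19:29213103-29213132, minus strand: gagcggctgtCGCCATGTTgtcggtagcat
The YY1-type matches of SDHB and UQCRC1 start at bases 11 and 24, counted from and including the RefSeq gene start, and share the same 9 letters. For UQCRC1 the RefSeq start lies inside the deposited gene span given above. That of UQCRFS1 lies on the opposite strand. For comparison, these are the match of NDUFA8, the complex I gene that rose with DDP_apoEV, and those of COX4I1 and COX6A1, complex IV genes called higher with STS_apoEV in one of the comparisons.
NDUFA8, chr9:122159764-122159793, minus strand: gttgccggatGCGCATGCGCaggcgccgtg
COX4I1, chr16:85799686-85799715, plus strand: ggccttgctctCTTCCGGTcgcgggacacc
COX6A1, chr12:120438114-120438143, plus strand: gtccagatcaAAAATGGCGgtagttggtgt
NDUFA8 holds another NRF1-type match that overlaps the one shown. Of 27 called members with a promoter in the table, 11 (40.7%) hold a match to one of the NRF1, ETS or YY1 types, against 35 of all 82 members with one (42.7%). Genes that rose and genes that fell both carry them, and a match describes these letters only.

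Other genes of respiration were described in lists chosen with earlier results known, and no difference between a list and the nuclear subunits was tested. Of all tested genes, 7.16% were called higher and 8.32% lower with DDP_apoEV, 15.9% higher and 16.8% lower with STS_apoEV, and 20.2% higher and 19.5% lower between the vesicle types. Of the 13 subunits encoded in the mitochondrial genome, 3 rose and 0 fell with DDP_apoEV, with 5 higher and 0 lower at an unadjusted p under 0.05 in edgeR, 4 and 0 in DESeq2 and 4 and 0 in limma-voom. The 3 were MT-ND5 (0.47 ± 0.07, adjusted p = 2.66e-06), MT-ND6 (0.46 ± 0.07, 1.24e-05) and MT-ND1 (0.40 ± 0.07, 4.60e-05), all core subunits of complex I. MT-ND5 stood at 1746, 1875 and 1810 CPM in the control libraries, 2417, 2517 and 2601 with DDP_apoEV and 2247, 2165 and 2207 with STS_apoEV, with no overlap between control and either vesicle group. With STS_apoEV, 6 rose and 0 fell against control, led by MT-ND6 (0.32 ± 0.07, 0.000660), MT-ND5 (0.29 ± 0.07, 0.000955) and MT-CYB (0.27 ± 0.07, 0.00229), with 8 and 0 at an unadjusted p under 0.05, 7 and 0 in DESeq2 and 8 and 0 in limma-voom. Without control 1, 3 rose. Rows of the mitochondrial genome held 11.4 to 12.5% of all counts in control, 12.1 to 13.1% with DDP_apoEV and 12.7 to 13.1% with STS_apoEV, so the groups overlapped between control and DDP_apoEV. If the counting ignored strand, which is not stated, reads of MT-ND6 and its antisense neighbours cannot be told apart.

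Between the vesicle types 1 of the 13 was higher and 3 lower. The shares of this list called were 23.1% higher and 0% lower with DDP_apoEV, 46.2% higher and 0% lower with STS_apoEV and 7.69% higher and 23.1% lower between the vesicle types. CYC1, the heme subunit of complex III, and CYCS, cytochrome c itself, are nuclear genes outside the prefixes, and both fell with STS_apoEV. CYC1 stood at 242, 216 and 211 CPM in the control libraries, 254, 250.1 and 228 with DDP_apoEV and 166, 203 and 176 with STS_apoEV and changed by −0.29 ± 0.08 against control (0.00390). CYCS stood at 405, 397 and 353 CPM in the control libraries, 417, 383 and 404 with DDP_apoEV and 279.8, 282 and 349 with STS_apoEV and changed by −0.34 ± 0.08 (0.00111). In each, all STS_apoEV libraries lay below all 6 others. HIGD2A, a small protein bound to complex IV, was higher with STS_apoEV than with DDP_apoEV (0.34 ± 0.08, 0.000797).

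Of 43 tested assembly factors outside the prefixes, 3 rose and 0 fell with DDP_apoEV, where edgeR gave 6 higher and 2 lower at an unadjusted p under 0.05, DESeq2 2 and 0 and limma-voom 3 and 0. With STS_apoEV 1 rose and 8 fell against control, and 2 were higher and 14 lower than with DDP_apoEV. These shares were 6.98% higher and 0% lower with DDP_apoEV, 2.33% higher and 18.6% lower with STS_apoEV and 4.65% higher and 32.6% lower between the vesicle types, near those of all genes for higher calls with DDP_apoEV and lower calls with STS_apoEV. The median log2 fold changes were 0.06, −0.11 and −0.17. Without control 1 or without STS_apoEV 1, 5 fell against control. Examples are LRPPRC, which stabilises mitochondrial mRNAs (−0.36 ± 0.07 against control, adjusted p = 0.000196), COA7 for complex IV (−0.41 ± 0.10, 0.00108) and BCS1L, which inserts the Rieske protein into complex III (−0.45 ± 0.11, 0.00109). LRPPRC stood at 472, 490.5 and 445 CPM in the control libraries, 494, 495 and 500.4 with DDP_apoEV and 366, 335 and 398 with STS_apoEV, so the STS_apoEV libraries were below all others.

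Of 26 genes of the tricarboxylic acid cycle and pyruvate dehydrogenase, 4 rose and 7 fell with DDP_apoEV, 3 rose and 11 fell with STS_apoEV, and 3 were higher and 11 lower between the vesicle types. These shares were 15.4% higher and 26.9% lower with DDP_apoEV, 11.5% higher and 42.3% lower with STS_apoEV and 11.5% higher and 42.3% lower between the vesicle types. DLAT, the acetyltransferase of pyruvate dehydrogenase, fell with STS_apoEV (−0.61 ± 0.09, 2.12e-06), and SUCLA2 of succinyl-CoA synthetase fell in both vesicle groups (−0.46 ± 0.08, 0.000105, and −0.48 ± 0.08, 1.88e-05). PDK4, which inhibits pyruvate dehydrogenase, rose in both, by 0.57 ± 0.12 with DDP_apoEV (0.00521) and 2.29 ± 0.12 with STS_apoEV (1.90e-09). It stood at 41.8, 46.6 and 62.3 CPM in the control libraries, 68.7, 78.3 and 77.0 with DDP_apoEV and 244, 224 and 271 with STS_apoEV, 3 separate levels with no overlap between groups. These comparisons share the control libraries, so their values are given side by side only.

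Among 19 tested regulators of mitochondrial biogenesis and mitochondrial DNA expression, 2 rose and 1 fell with DDP_apoEV, 1 rose and 3 fell with STS_apoEV, and 3 were higher and 7 lower between the vesicle types. These shares were 10.5% higher and 5.26% lower with DDP_apoEV, 5.26% higher and 15.8% lower with STS_apoEV and 15.8% higher and 36.8% lower between the vesicle types, near those of all genes with DDP_apoEV and for lower calls with STS_apoEV. PPARGC1A, the coactivator PGC-1 alpha, stood at 6.90, 6.70 and 7.29 CPM in the control libraries, 1.81, 0.975 and 2.10 with DDP_apoEV and 11.7, 10.7 and 11.2 with STS_apoEV. The groups did not overlap, and the log2 fold changes were −2.09 ± 0.23 with DDP_apoEV (adjusted p = 1.73e-08), 0.68 ± 0.19 with STS_apoEV (0.00546) and 2.78 ± 0.22 between them (6.14e-12). PPRC1, a related coactivator, went in the opposite directions, at 39.4, 35.8 and 33.3 CPM in the control libraries, 51.1, 45.8 and 47.4 with DDP_apoEV and 28.3, 23.8 and 26.9 with STS_apoEV, with 0.41 ± 0.09 (0.00192), −0.46 ± 0.10 (0.000340) and −0.87 ± 0.10 (6.32e-09). The factors whose motifs were searched above stood at 21.7, 25.3 and 24.2 CPM (NRF1), 35.9, 38.5 and 35.9 (GABPA) and 94.2, 96.6 and 92.4 (YY1) in control.

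**Figure D5:**
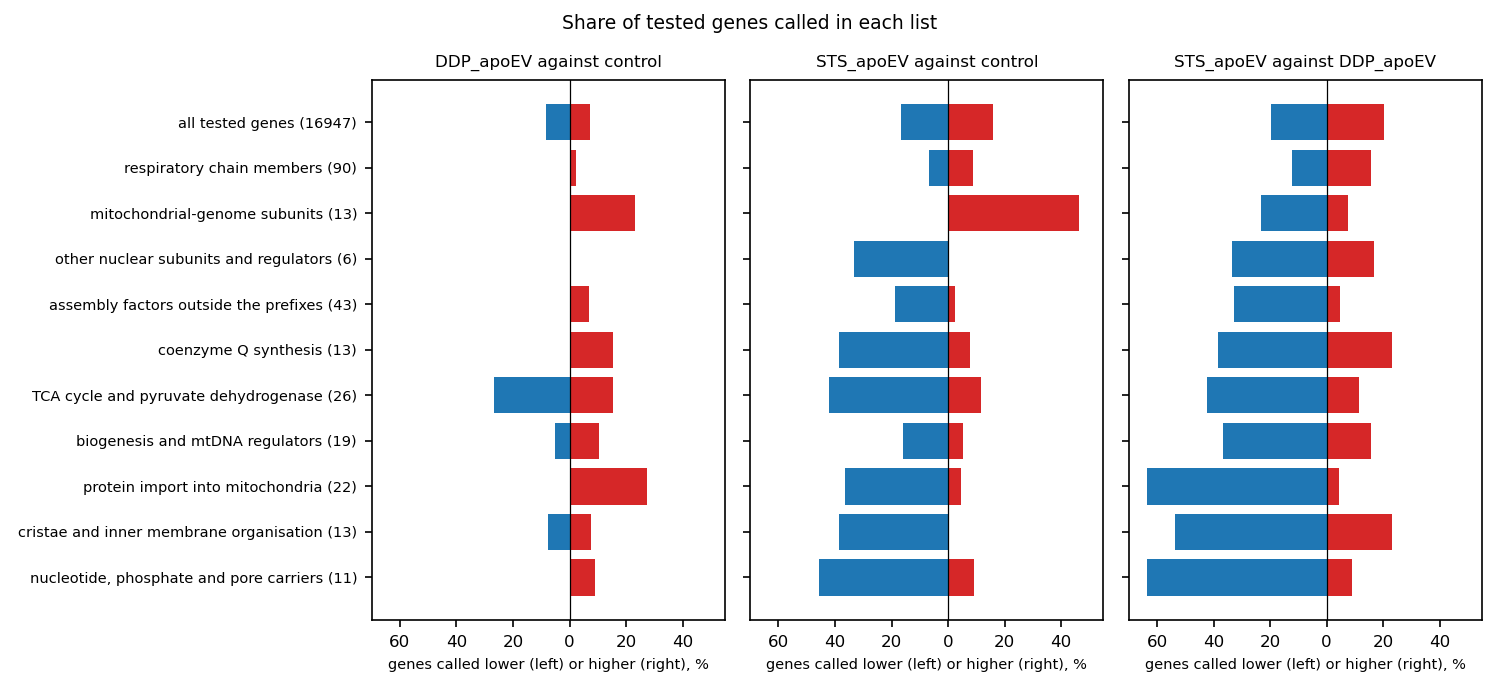
Percentage of tested genes called lower (blue, left) or higher (red, right) in each comparison, for all genes, the respiratory chain members and the related lists, with the number tested in parentheses. The members' bars are shorter than those of all genes in each of the 3 panels and on both sides. In the panels with STS_apoEV, the lists of import, carrier, tricarboxylic acid cycle, cristae and coenzyme Q genes extend furthest to the left.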

How the data were processed

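Per the labels' protocols, TRIzol was used for RNA extraction and a NEBNext Ultra kit for the libraries. The submitters' processing notes list featureCounts 1.5.0-p3, Subread, limma, StringTie 1.3.3b, HISAT2 2.0.5 and the build hg38, with no roles. The annotation, read length and strand setting are not given in the sources used here. The authors deposited raw counts (whole numbers of reads for each gene) and FPKM values for the same 62257 rows. Of these, 705 rows without a gene name (0.313% to 0.357% of counts) stayed out of the members, and 61399 matched a symbol.

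Groups came from the sample titles. Counts were tested with edgeR 4.0.16 (quasi-likelihood, robust) in R 4.3.3, with TMM scaling, the default expression filter, all 9 libraries in 1 fit and no covariates. The biological coefficient of variation was 0.0992. SE is the log2 fold change over the square root of F. Intervals are nominally at 95%, by a normal approximation that can be too narrow with few libraries. Of the 101 genes 90 passed the filter. The other 11 are NDUFS3, NDUFA3, NDUFA6, COX4I2, COX6A2, COX6B2, COX7B2, COX8C, ATP5MGL (0 to 4 counts), NDUFC2-KCTD14 (0) and ATP5MF-PTCD1 (0 to 6). Shared stretches used GENCODE v29, whose start and end match the deposited table for 39 of the 101 genes. Named genes are the 10 called members of smallest p in each direction per comparison, the extremes of each complex, fixed core subunits and isoforms, and up to 3 called genes per related list. Further called members, and list genes given at their level alone, were named after their values were seen. Members, lists and this rule were chosen with earlier results of these data known. The planned comparison of protein isoforms was not made, because no protein table was used here. The scripts were tested on simulated data. The result of 1 gene that the rule names is not reported here.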

Additional observations from a re-analysis of the deposited data

How the results depend on the processing

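The adjusted p is edgeR's unless a tool is named. Counts of members called higher with DDP_apoEV against control were 2 in the main analysis, 1 with DESeq2 1.42.0, 1 with limma on log2(FPKM + 1) or log2(FPKM + 0.1) at a mean FPKM of at least 1, 0 with limma on log2(FPKM + 1) without a filter, 4 in a fit of the 2 groups alone, and 0 to 3 with single libraries left out. Members called lower there were 0, and 0 to 1 with libraries left out (1 without DDP_apoEV 1), and the median of −0.01 without DDP_apoEV 1 changed sign, within −0.0144 to 0.0753 over libraries left out. For STS_apoEV against control, 8 higher became 14 with upper-quartile factors, 5 without a filter, 4 with DESeq2, 4 with either filtered limma fit on FPKM, 1 with the unfiltered one, 5 with counts thinned to the smallest library, and 3 to 15 with libraries left out (3 without control 2, 4 without control 3, 15 without STS_apoEV 1, 5 without STS_apoEV 3). The 6 lower became 3 with unfiltered limma, and 3 to 8 with libraries left out (3 without STS_apoEV 1). Complex IV there had 2 with either filtered and 0 with unfiltered limma, and 2 to 9 with libraries left out. Between the vesicle types, 14 higher became 7 with either filtered and 0 with unfiltered limma, and 6 to 20 with libraries left out (6 without DDP_apoEV 2, 8 without STS_apoEV 2). The 11 lower ranged from 8 to 15. Complex IV there had 3 with either filtered and 0 with unfiltered limma, and 3 to 10 with libraries left out. The members' median reversed there, to −0.05 without DDP_apoEV 2, −0.05 without STS_apoEV 3 and −0.0341 less the trend on gene length, within −0.0473 to 0.0689. For STS_apoEV against control, mitochondrial-genome subunits called higher became 3 with unfiltered limma and 3 to 7 with libraries left out. Assembly factors outside the prefixes called lower became 5 with unfiltered limma and 5 to 8 with libraries left out. Tricarboxylic acid cycle genes called lower between the vesicle types became 7 with unfiltered limma, within 9 to 12 over libraries left out. The cause was not tested in any of these. The unfiltered fits test more genes. No named gene that was called changed sign.

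Replicate numbers did not pair the libraries: same-numbered libraries of different groups had correlations of −0.0847 to 0.0547, and 2 of 18 best matches were with the own number. With the replicate block, members called higher and lower were 1 and 0 with DDP_apoEV, 7 and 6 with STS_apoEV, and 12 and 11 between the vesicle types. The 11 members that did not pass the filter had too few counts to be tested.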

Other observations

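Of 22 tested genes of protein import into mitochondria, 6 rose and 0 fell with DDP_apoEV (10 and 0 at an unadjusted p under 0.05 in edgeR, 6 and 0 in DESeq2 and in limma-voom), 1 rose and 8 fell with STS_apoEV, and 1 was higher and 14 lower with STS_apoEV than with DDP_apoEV. The shares called were 27.3% higher and 0% lower with DDP_apoEV, 4.55% higher and 36.4% lower with STS_apoEV and 4.55% higher and 63.6% lower between the vesicle types. Of all tested genes, 7.16% were called higher and 8.32% lower, 15.9% higher and 16.8% lower, and 20.2% higher and 19.5% lower in the same order. No difference between this or the following lists and other genes was tested. GRPEL1, which recycles the import motor's chaperone, stood at 60.4, 51.3 and 52.2 CPM in the control libraries, 80.0, 67.5 and 76.4 with DDP_apoEV and 42.6, 41.7 and 46.5 with STS_apoEV, with log2 fold changes of 0.45 ± 0.09 (adjusted p = 0.000315) with DDP_apoEV and −0.78 ± 0.09 (1.34e-08) between the vesicle types. TOMM40, the channel of the outer membrane, stood at 135, 109.8 and 119 CPM in the control libraries, 158, 159 and 146 with DDP_apoEV and 93.7, 104 and 89.3 with STS_apoEV, with 0.35 ± 0.08 (0.00203) and −0.69 ± 0.08 (2.52e-08). In both genes the DDP_apoEV libraries were the highest and the STS_apoEV libraries the lowest. TOMM20, a receptor of the outer membrane, rose with STS_apoEV (0.34 ± 0.07, 0.000307).

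Of 13 genes of cristae and inner membrane organisation, 1 rose and 1 fell with DDP_apoEV, 0 rose and 5 fell with STS_apoEV (0 and 6 at an unadjusted p under 0.05 in edgeR, 0 and 5 in DESeq2 and limma-voom), and 3 were higher and 7 lower between the vesicle types. The shares called were 7.69% higher and 7.69% lower with DDP_apoEV, 0% higher and 38.5% lower with STS_apoEV and 23.1% higher and 53.8% lower between the vesicle types, and with DDP_apoEV they were near those of all genes. STOML2, an inner membrane scaffold protein, rose with DDP_apoEV (0.31 ± 0.07, 0.00238) and fell with STS_apoEV (−0.31 ± 0.07, 0.00106). CHCHD3, of the complex that shapes cristae junctions, fell with STS_apoEV (−0.48 ± 0.08, 1.07e-05). Among 11 carriers and pores, 1 rose and 5 fell with STS_apoEV, including the outer membrane pore VDAC1 (−0.36 ± 0.07, 9.63e-05) and UCP2 of the inner membrane (−0.63 ± 0.09, 1.38e-06), and 1 was higher and 7 lower than with DDP_apoEV. The shares called were 9.09% higher and 0% lower with DDP_apoEV, 9.09% higher and 45.5% lower with STS_apoEV and 9.09% higher and 63.6% lower between the vesicle types. Of 13 coenzyme Q genes 1 rose and 5 fell with STS_apoEV, and the shares called were 15.4% higher and 0% lower with DDP_apoEV, 7.69% higher and 38.5% lower with STS_apoEV and 23.1% higher and 38.5% lower between the vesicle types. COQ4 rose (0.62 ± 0.10, 4.24e-06), and PDSS2 (−0.47 ± 0.10, 0.000530) and COQ2 (−0.38 ± 0.09, 0.000801), which make and attach the side chain, fell. The calls named here for STS_apoEV against control held whichever single library was left out.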
